A study of Mus musculus with 4 samples.

Results

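Fndc5 was examined in RNA from whole hearts of C57BL/6 mice, after pulldown with an ac4C antibody (ac4C is N4-acetylcytidine, a modified RNA base) according to the series text. It was chosen by name: 1 line of the deposited table named Fndc5, which made 1 region of 558 distinct regions in all. The libraries fell into 2 groups, 2 from NAT10 knockout hearts and 2 from control hearts. The treatment label of all 4 was HFD+STZ+Exercise, so that the data hold no comparison of exercise or of HFD+STZ. The title of the series names diabetic cardiomyopathy. The labels give neither the age of the mice, nor how or in which cells NAT10 was removed, nor whether the libraries came from separate animals.

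Fndc5 encodes a membrane protein of muscle with a fibronectin type III domain. In mice its outer part can be cut off and released as irisin, a hormone that is known as a myokine, a factor that muscle secretes on exercise. Transcription of Fndc5 in skeletal muscle is raised by the coactivator PGC-1alpha, and the heart also makes the RNA. NAT10 is the acetyltransferase that makes ac4C, which is found in ribosomal RNA, transfer RNA and, according to studies of human cells, in messenger RNA, where wobble cytidines (those at the end of a codon) and triplet repeats that start with cytidine were reported as its usual sites.

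The coding sequence of Fndc5 is shown because ac4C is a change of cytidines. In the GENCODE M21 annotation of GRCm38, Fndc5 lies on chromosome 4 from 129136999 to 129144593 on the plus strand, has 6 exons, and no other annotated gene overlaps it on either strand. Its annotated transcript is 2763 bases long, with 627 coding bases, and 74.4% of it is 3′ untranslated sequence. The deposited table places the gene from 129030477 to 129038386 on chromosome 4, which is not the GRCm38 position, so the table's build is not that of the annotation. The table gives the gene's position and not the region's own, so which exons the counts come from is not known. The coding part of exon 1 in that annotation (chr4:129137079-129137163, GRCm38, plus strand) reads as follows, 5′ to 3′ from the start codon, with capitals for cytidines at the end of a codon:
Fndc5 exon 1: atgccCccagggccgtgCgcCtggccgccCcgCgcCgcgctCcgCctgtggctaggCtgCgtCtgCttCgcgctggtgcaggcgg

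Of the 28 whole codons in this stretch, 13 ended in C, and 82 of the 209 codons of the full coding sequence, stop included, did so (39.2%). Among 21516 other mouse coding genes the median share was 30.0%, with quartiles of 24.6% and 35.5%, and 12.1% of these genes had a share at or above that of Fndc5. Among 312 other coding genes that the table's regions overlap the median was 31.5%, and 12.5% were at or above Fndc5. Total cytidine content was 28.9% in Fndc5 and had a median of 25.7% over all other coding genes, of which 24.8% were at or above Fndc5. Fndc5 therefore stood higher in the order of genes by wobble cytidines than by cytidines in all.

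**Figure D1:**
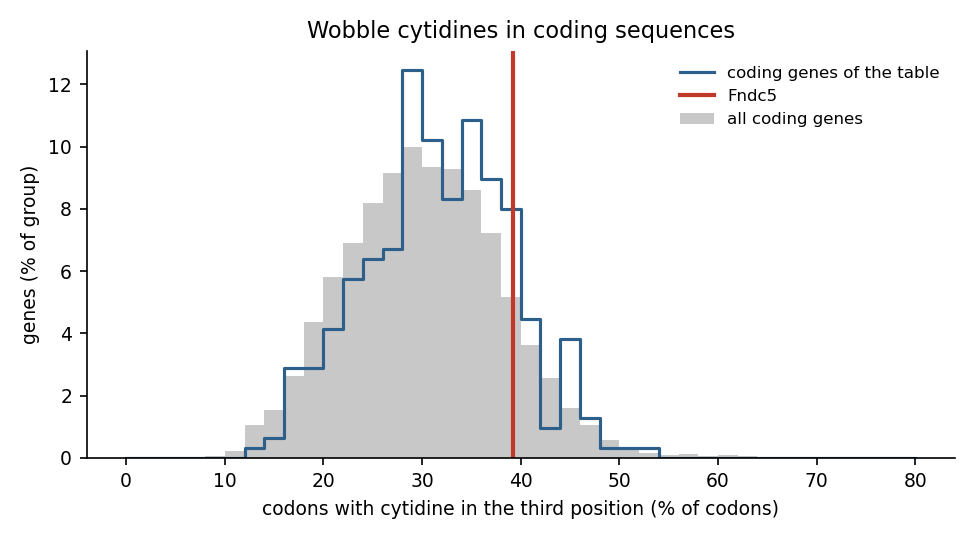
Share of codons with cytidine at their end (x axis, % of codons) against the share of genes (y axis, % of each group) for all mouse coding genes (grey bars) and for coding genes overlapped by regions of the table (blue line). The red line marks Fndc5 at 39.2%, to the right of the median of both distributions (30.0% and 31.5% without Fndc5).

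The longest run of the repeat CNN on the sense strand, in any frame, had 5 triplets, and it is the run of closely spaced capitals near the 3′ end of the printed stretch, at coding bases 57 to 71. A run of 5 or more was present in 77.9% of other coding genes and in 83.3% of those in the table, so the run in Fndc5 was a common one. Counting overlapping matches on the sense strand, CNNCNNCNNCNN matched 8 times in the Fndc5 coding sequence, or 1.28 times per 100 bases, against a median of 0.743 per 100 bases over other coding genes, and 26.2% of these were at or above Fndc5. The opposite strand, which is not the RNA, held 10 matches. These matches describe letters only, since the table gives no position of ac4C within the RNA.

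The counts in the table summed to 693922 and 920818 in the knockout libraries and to 674687 and 686323 in the control libraries. These sums cover the listed regions only, not whole libraries. Of 10 cardiomyocyte markers, 7 had regions. Their counts came to 7.03% and 7.36% of the TMM-scaled total of the table in knockout, against 6.91% and 6.98% in control. These are not shares of the counts as deposited. Of 11 markers of skeletal muscle, where Fndc5 is also active, only Ckm had a region (676 and 640 CPM in knockout, against 780 and 677 CPM in control, where CPM is the count scaled to a common library size, over the counts in the table), and the heart makes Ckm too. Markers of fibroblasts, endothelial cells, adipocytes, and neurons and Schwann cells had no region. Of 5 smooth muscle and pericyte markers Abcc9 and Rgs5 had regions (151 and 187 CPM summed in knockout, against 84.0 and 154 CPM in control). Of 5 macrophage markers Cd74 had one (103 and 103 CPM in knockout, against 48.5 and 84.4 CPM in control), and of 5 erythroid markers Hba-a2 (54.1 and 18.8 CPM in knockout, against 32.3 and 45.1 CPM in control). Of the 45 cardiomyocyte marker regions, 3 passed the test, all higher in knockout, beside 2.33% of all regions that were higher. No region of the other markers passed. The part of any other cell type in the Fndc5 level was not tested. The targeted gene was not analysed here, so the labels have no check from it. No library made without the antibody was analysed here, so RNA abundance and ac4C content cannot be told apart, nor can fewer cells of a type and less RNA per cell.

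Relative to the other regions of the table, Fndc5 was captured at nearly the same level in knockout and control hearts. Every scaling used here rests on regions of the same pulldown, so a change in capture shared by most regions would not be seen. As deposited, it had 198 and 120 counts in knockout replicates 1 and 2, against 104 and 130 counts in control replicates 1 and 2. Knockout replicate 1 was the highest, and it was also the library with the largest total. All 4 counts were even, as were 77.9% to 83.3% of all counts below 200 in each library, so reads may not have been counted singly.

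After TMM scaling, which corrects for library size and for a few very abundant RNAs, Fndc5 stood at 181 and 188 CPM in knockout, against 168 and 189 CPM in control. Both knockout values lay between the 2 control values, so the groups overlapped. Groups did not overlap in 47.5% of the 558 regions. The means were 185 ± 4.70 CPM in knockout and 179 ± 15.0 CPM in control (SD, n = 2 each).

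By edgeR's quasi-likelihood test over all 558 regions, the log2 fold change of knockout over control was 0.04 ± 0.19 (SE), with a Benjamini-Hochberg adjusted p of 0.925. Its 95% interval ran from -0.34 to 0.42, that is, from 0.792-fold to 1.34-fold. Larger differences in either direction lie outside this interval, and smaller ones could not be detected with 2 libraries a group. In the same fit 22 regions passed, 3.94% of those tested, 13 higher (2.33%) and 9 lower (1.61%) in knockout.

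**Figure D2:**
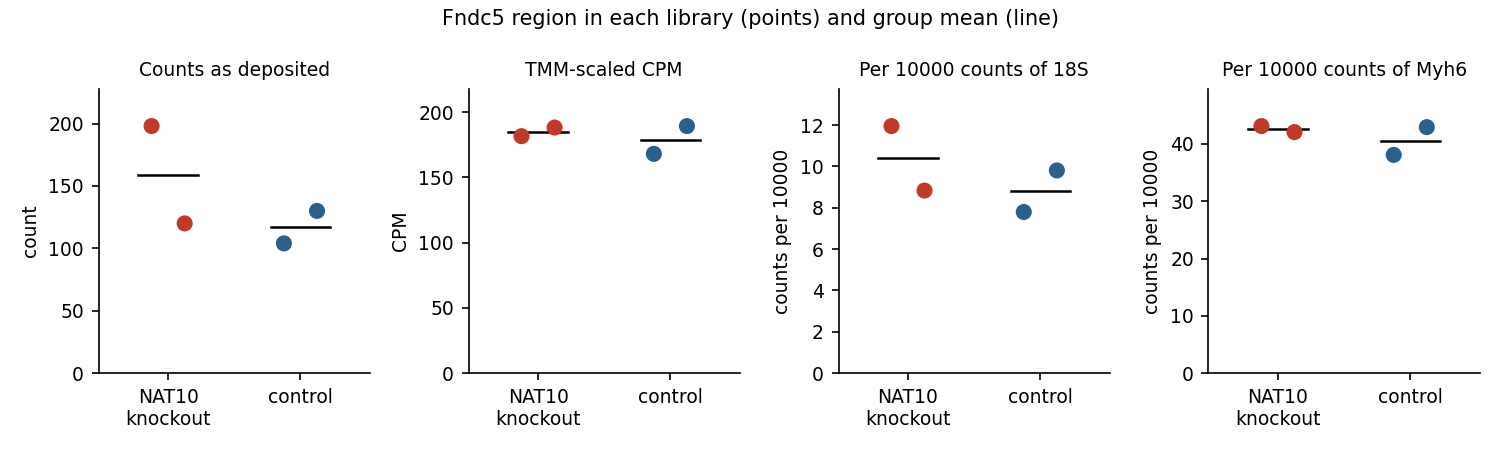
Fndc5 in each library (points) with the mean of each group (lines), NAT10 knockout on the left and control on the right, n = 2 each. From left to right, the y axes give counts as deposited, TMM-scaled CPM, counts per 10000 counts of the 18S region and counts per 10000 counts of the 15 Myh6 regions, and the groups overlap in each panel.

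The comparison was also made on scales that do not use the table totals. Per 10000 counts of the 18S ribosomal RNA region, Fndc5 had 12.0 and 8.83 counts in knockout, against 7.80 and 9.81 in control. Per 10000 counts of the largest mitochondrial region it had 9.45 and 7.14 in knockout, against 6.61 and 8.21 in control. Knockout replicate 1 was highest on both of these scales, and the groups overlapped. NAT10 makes ac4C in ribosomal RNA, and the protocol removed ribosomal RNA. The 18S region is therefore not a reference known to be unaffected by the knockout, and this was not tested.

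Per 10000 counts summed over 15 regions of Myh6, which encodes the alpha myosin heavy chain of heart muscle, Fndc5 had 43.1 and 42.1 in knockout, against 38.1 and 42.9 in control. On this scale, whose reference is made by heart muscle cells, control replicate 1 was the lowest and the other 3 libraries lay close together. Control replicate 1 was also the lowest library on the scales of 18S, of the mitochondrial region and of TMM.

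As a share of the table total, Fndc5 had 215 CPM in knockout replicate 1, with an exact 95% binomial interval of 186 to 247, and 173 CPM in knockout replicate 2 (143 to 207). In control replicate 1 it had 154 CPM (126 to 187) and in control replicate 2 it had 189 CPM (158 to 225). The intervals cover counting error only. If each molecule had been counted as a pair, they would widen, for example to 175 to 262 in knockout replicate 1 and to 115 to 202 in control replicate 1. Taken as independent counts, the intervals of knockout replicate 1 and control replicate 1 meet only at their ends, and taken as pairs they overlap widely.

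Fndc5 was a region of middling count. It ranked 228 and 217 of 558 regions, counted from the highest, in the knockout libraries, and 245 and 226 in the control libraries. It held 1.38 and 1.46 times the count of the median region in knockout, against 1.24 and 1.41 times in control. These ranks are of counts per region, not per length, so they do not order the genes by expression.

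Its fitted change was among the smallest, though its place in that order is uncertain. Only 9.32% of regions, 52 of 558, had a smaller fitted change in absolute size, and the median over all regions was 0.01 on the log2 scale, with quartiles of -0.21 and 0.29. The standard error of Fndc5, 0.19, was below the median of 0.22 over all regions. It was larger than the fitted change itself, 0.04, so the rank by size is not resolved with these libraries. Among 110 other regions with a mean CPM within 1.5-fold of that of Fndc5, 7 passed the test (6.36%, beside 3.94% of all regions), and all 7 were lower in knockout. The smallest change that passed there was a log2 fold change of -0.65, below the lower bound of the Fndc5 interval. The highest fitted change among the 110 was 0.56, and no higher region passed at this level of counts.

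**Figure D3:**
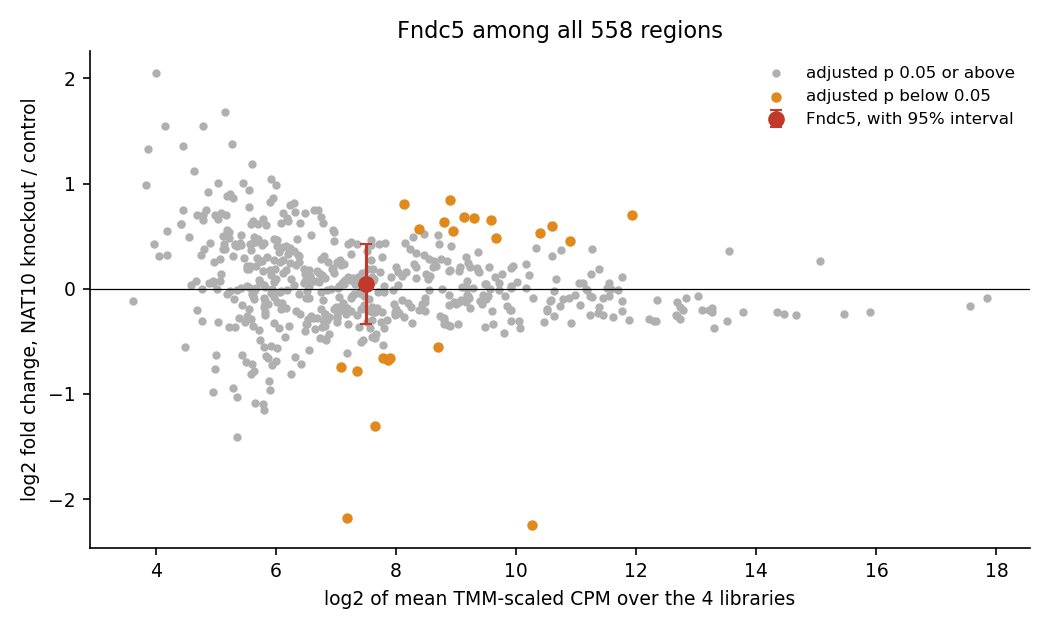
Log2 of the mean TMM-scaled CPM over the 4 libraries (x axis) against the edgeR log2 fold change of NAT10 knockout over control (y axis) for 558 regions. Fndc5 (red, with its 95% interval from -0.34 to 0.42) lies on the zero line among regions that did not pass (grey), and the 22 regions that passed are orange.

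The regions nearest to Fndc5 in profile were those with the smallest root mean square difference in centred log2 CPM over the 4 libraries, among 424 other regions with a usable gene name. The median difference was 0.226, and the nearest 5 lay between 0.0211 and 0.0347. In order these were a region of Slc25a4, the mitochondrial carrier that exchanges ADP for ATP, a region of titin (Ttn) that also overlaps Gm13938, 1 of the Myh6 regions, Snord3a (a U3 small nucleolar RNA, which has near-identical copies) and Ndufa4, a subunit of the respiratory chain. Slc25a4 stood at 2179 and 2317 CPM in knockout, against 2077 and 2262 in control. In Slc25a4, as in Fndc5, control replicate 1 was the lowest library. Ndufa4, nearest of the 5 to Fndc5 in count, stood at 128 and 140 CPM in knockout, against 126 and 135 in control. The adjusted p of these 5 regions ran from 0.805 (Myh6) to 0.994 (the titin region). Likeness over 4 libraries describes these libraries only.

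The other genes of the irisin pathway were mostly outside the table. Of 26 genes listed for it (regulators of Fndc5 such as Ppargc1a and Esrra, integrin receptor subunits, and targets such as Ucp1 and Bdnf), only Itgb1 had a region. Itgb1 encodes integrin beta 1, a subunit shared by many integrins, the receptor family through which irisin acts. It had 31.2 and 61.1 CPM in knockout, against 25.8 and 40.8 CPM in control. Its log2 fold change was 0.42 ± 0.52, and it did not pass (edgeR adjusted p = 0.690). The groups overlapped, and the counts were low, from 16 to 39 per library. The region is listed with Gm26100, so its counts cannot be assigned to Itgb1 with certainty.

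Of 48 genes for factors that muscle or heart secretes, with their processing enzymes, 5 had regions (7 in all). Of these genes, 2 fell and 3 did not pass, beside 1.61% of all regions that were lower. This list held Nppa and Pam, whose fall was known from an earlier analysis of these libraries, so its count is no independent evidence of a direction. The median over the 7 regions was 0.09, beside 0.01 over all regions.

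Nppa, the gene of atrial natriuretic peptide, had 429 and 423 CPM in knockout, against 2006 and 2046 CPM in control (log2 fold change -2.25 ± 0.12, edgeR adjusted p = 1.27e-15). Its region also overlaps Gm13054. Pam, the gene of the enzyme that amidates peptide hormones, had 115 and 116 CPM in knockout, against 317 and 258 CPM in control (-1.31 ± 0.19, edgeR adjusted p = 1.29e-05), in a region listed with the pseudogene Btf3-ps1. With Fndc5, then, secreted-protein genes in the same fit held both the region of lowest p and one of the smallest fitted changes. Pam lost its call with scaling to 18S (-1.10, adjusted p = 0.188) and with the replicate number as a block (-1.31, adjusted p = 0.119).

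The other genes of that list lay nearer to Fndc5. Ctsb, which encodes the protease cathepsin B, had 148 and 143 CPM in knockout, against 123 and 151 CPM in control (0.09 ± 0.21, edgeR adjusted p = 0.840). As in Fndc5, both knockout libraries lay between the control libraries. Hspa5, the chaperone gene of the endoplasmic reticulum, had 185 and 151 CPM in knockout, against 136 and 134 CPM in control, with no overlap (0.33 ± 0.20, adjusted p = 0.397). The 3 regions of Vegfb, an endothelial growth factor gene, had fitted values from -0.02 to 0.51, and none passed (adjusted p from 0.532 to 0.994).

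Among other genes with fibronectin type III domains, titin is the giant spring protein of the sarcomere. Its 22 regions ranged from -0.26 to 0.21 with a median of -0.0037, and 0 passed, beside 3.94% over all regions. No other gene of the Fndc family had a region.

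On chromosome 4 the nearest regions by the table's gene starts were those of Map7d1, a microtubule-associated protein gene, from 126125960, and of Ptp4a2, a phosphatase gene, from 129714014. The regions of Map7d1 stood at 0.21 ± 0.44 and -0.36 ± 0.45, and those of Ptp4a2 at -0.05 ± 0.26 and 1.00 ± 0.59. None passed (edgeR adjusted p from 0.376 to 0.944). The second Ptp4a2 region had 34.8 and 53.3 CPM in knockout, against 25.8 and 17.5 CPM in control, without overlap, from 12 to 38 counts per library. Of 29 other regions on the chromosome 3 passed, beside 3.94% of all regions, and all 3 were lower in knockout (1.61% of all regions), Nppa and 2 regions of Pink1.

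The authors' deposited table also carries a comparison of its own, in which Fndc5 stands out more. The authors' deposited table gave Fndc5 a log2 fold change of -1.89, with a p-value of 0.00158 and a q-value of 0.873. In the authors' deposited table a positive sign means higher in control (2.69 for Nppa), so Fndc5 is given there as higher in knockout. By p-value it was 11th of 558 regions in the authors' deposited table, where 27.2% of regions had a p-value below 0.05 and 0 had a q-value below 0.05.

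In size, the change of Fndc5 in the authors' deposited table amounts to 3.70-fold. The deposited counts of the same region, summed per group without any scaling, differ 1.36-fold, and the scaled counts 1.03-fold. The value also lies outside the 95% interval of the edgeR fit. The authors' deposited table has a median log2 fold change of -0.99 over the 558 regions, with 429 below 0 and 129 above, where Fndc5 ranks 127 from the most negative. Of the 429 regions given there as higher in knockout, 277 were above 0 in the edgeR fit, where the median of all 558 regions was 0.01.

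Fndc5 is not alone in this. In 32 of 558 regions the log2 fold change of the authors' deposited table lay within 0.1 of the log2 ratio of the summed counts with its sign turned, and in 39 within 0.1 of the edgeR value. Of the 10 regions with a lower p-value than Fndc5 in the authors' deposited table, 1 passed the edgeR test, beside 3.94% of all regions. It was the region over Pln, Cep85l and Gm47644. Ndufa4 is a further one of these 10, with -1.51 in the authors' deposited table and 0.03 ± 0.21 in the edgeR fit. It was named for a profile like that of Fndc5 in these libraries, so its small edgeR change follows from that choice. No label or header says how the authors' values were made, so whether they rest on these 4 libraries alone is not known. They stand beside the counts of these libraries, so the comparisons cannot be taken as independent.

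**Figure D4:**
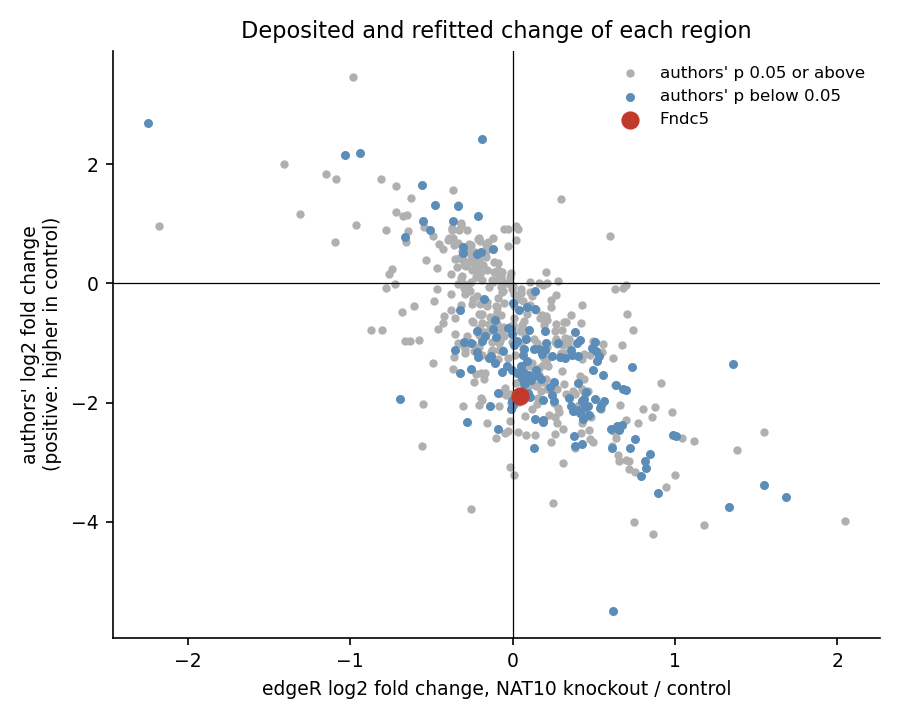
The edgeR log2 fold change of NAT10 knockout over control (x axis) against the authors' log2 fold change, which is positive where control is higher (y axis), for 558 regions, with those of a p-value below 0.05 in the authors' deposited table in blue. Fndc5 (red) lies at 0.04 on the x axis and at -1.89 on the y axis.

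No other way of scaling, testing or choosing libraries moved Fndc5 past the threshold. Over 19 alternatives its log2 fold change ranged from -0.04, without control replicate 1, to 0.24, with scaling to 18S, and its adjusted p from 0.778 to 0.986. With scaling to totals alone and to 18S the value was 0.18 and 0.24, where the median of all regions was 0.15 and 0.22. Relative to that median Fndc5 stood at 0.027 and 0.023, against 0.035 with TMM factors. Over all alternatives the bounds of the 95% interval stayed between -0.52 and 0.97, that is, between 0.695-fold and 1.96-fold. The change given in the authors' deposited table, taken as it stands, lay outside the interval in each. The values there have a median of -0.99 over all regions, so they do not share a centre with these fits.

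**Figure D5:**
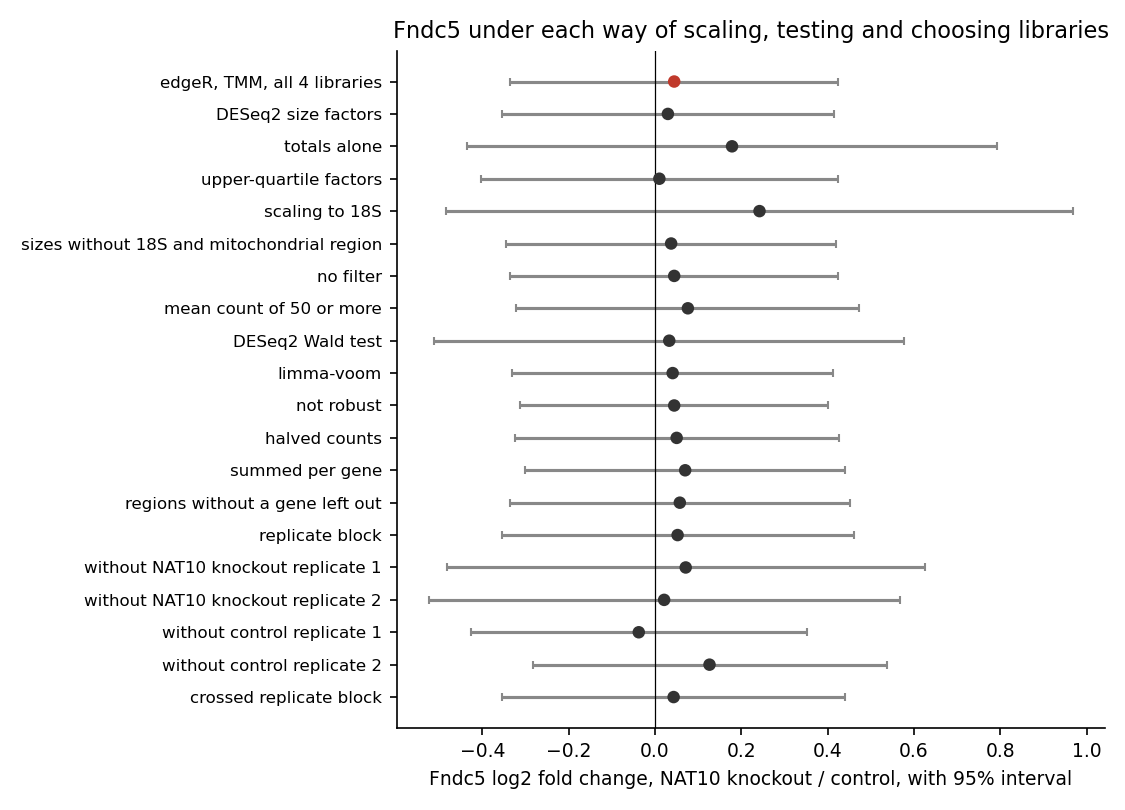
Log2 fold change of Fndc5, NAT10 knockout over control (x axis), with its 95% interval (bars), in the edgeR fit of all 4 libraries (red, top) and under 19 alternatives (black). Each interval includes 0, and the highest upper bound, with scaling to 18S, is 0.97.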

How the data were processed

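The labels' protocols describe Trizol extraction of frozen hearts, 1 ug of total RNA and ribosomal RNA removal. FastQC, Salmon and mm10 are named, without roles, per the submitters' processing notes. The name mm10 stands for GRCm38, which is not the build of the Fndc5 position in the deposited table. The authors deposited whole-number counts per region, and in the same table a log2 fold change, p-value and q-value of their own, per the file headers. No label or header names the strand handling, the region caller or the counter.

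The 652 lines were reduced to 558 distinct regions. The count test was that of edgeR 4.0.16 under R 4.3.3 (TMM after filterByExpr, which removed 0 regions, robust glmQLFit and glmQLFTest, Benjamini-Hochberg adjusted p below 0.05), with limma 3.58.1 and DESeq2 1.42.0 among the alternatives. The edgeR steps were also run on simulated counts with the same spread in every region, which does not test the p-values of these libraries. CPM are relative to the scaled total of the table, not of the library. The labels name no separate animals, so p-values cover the spread between libraries, which may be technical. TMM factors were 1.18 and 0.92 in knockout and 0.92 and 1.00 in control. Profiles used log2 CPM with a prior count of 2. Coding sequences came from GENCODE M21, 1 per gene, the longest, and 313 of the 319 table genes that it gives as protein coding had one (of 459 gene identifiers in all).

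Fndc5, the lists, the tests and the alternatives were chosen with earlier results of these data known. Named were Fndc5, list members with a region (1 result is not reported here), the 5 nearest profiles and the neighbours on the chromosome.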

Additional observations from a re-analysis of the deposited data

How the results depend on the processing

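Fndc5 stayed on the same side of the threshold in all 19 alternatives, and its direction turned in 1: without 1 library its log2 fold change lay between -0.037 (without control replicate 1) and 0.13 (without control replicate 2). With the replicate number as a block it was 0.05 (adjusted p = 0.880). Same-numbered libraries had only a weak tendency to deviate in opposite directions (correlation -0.159 across regions). With the pairing crossed, an alternative chosen after seeing the data, 42 regions passed. The labels name no shared animal or day, so the numbers were not used as pairs. The Fndc5 level was 199 CPM in knockout against 169 CPM in control when scaled to 18S, 194 CPM in knockout against 172 CPM in control when scaled to totals, and 321 CPM in knockout against 311 CPM in control where the 18S and the largest mitochondrial region were left out of the library sizes. The count of regions that passed, 22, fell to 8 when scaled to totals, 6 when scaled to 18S, 5 by DESeq2's Wald test and 1 with the replicate block, and was 13 to 37 without 1 library.

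Of the regions named beside Fndc5, with the other titin regions left out, 11 changed sign in some setting, and none of these passed the test in any. The other titin regions were followed only by the median of all 22. It turned from -0.0037 to 0.13 when scaled to totals and 0.20 when scaled to 18S. Without 1 library the fitted values ran from -0.069 to 0.083 for the titin region nearest in profile, -0.10 to 0.86 for Itgb1, -0.19 to 0.48 and -1.15 to 0.20 for the Map7d1 regions, -0.053 to 0.24 for Ctsb, -0.46 to 0.26 for the Vegfb region listed with Fkbp2, -0.053 to 0.18 for the Myh6 region, -0.027 to 0.091 for Ndufa4, -0.0096 to 0.11 for Slc25a4 and -0.077 to 0.12 for Snord3a. The titin region stood at -0.0059 with DESeq2 size factors, -0.029 with upper-quartile factors and -0.0056 by DESeq2's Wald test, and with upper-quartile factors Ndufa4 stood at -0.0069 and Snord3a at -0.014. Scaled to totals and to 18S, 1 Ptp4a2 region stood at 0.084 and 0.15 and that Vegfb region at 0.14 and 0.21. That Vegfb region stood at 0.025 with a mean count of 50 or more, 0.019 with limma-voom and 0.026 with halved counts. The cause was not tested. Sums per gene gave no value for regions of genes with several regions.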
